A study of Mus musculus with 6 samples.

Results

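The 10 genes described here belong to the amino acid stress response that is run by the transcription factor ATF4. They are Atf4 itself, Ddit3, Trib3, Asns, Psat1, Phgdh, Shmt2, Chac1, Slc7a11 and Sesn2, and the list was drawn up by name. All 10 had counts, as did 21717 genes in all. The data are RNA-seq libraries of sorted CD45-EPCAM+ tumor cells from 6 breast tumors, each numbered here as in its label. The mice were MMTV-PyMT females on the FVB background, in which the mammary tumor virus promoter drives the polyoma middle T oncogene in mammary epithelium. All 6 mice were given B20-4.1.1, which blocks murine VEGF-A, from 7 weeks of age. The antibody was injected intraperitoneally at 5 mg/kg, 2 times per week for 6 weeks. The study separated treated tumors into low and high hypoxia, but the class of each tumor is not given in the labels used here. No groups were therefore compared, and each value is given by tumor. Vehicle-treated tumors and the CD45+ fraction were not analysed here.

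When a cell lacks amino acids or accumulates unfolded protein, kinases such as GCN2 and PERK phosphorylate the translation factor eIF2α. General protein synthesis slows, while the Atf4 mRNA is translated more, so that ATF4 protein can increase without any increase in its mRNA. ATF4 then binds composite sites known as CARE sequences and turns on genes for amino acid synthesis, amino acid import, tRNA charging and redox balance, and under lasting stress genes of cell death. Tumors short of oxygen and nutrients are known to use this program. Only mRNA was measured in these samples, so neither eIF2α phosphorylation nor ATF4 protein is known.

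The promoters of the members were searched for the core of the CARE sequence, TGATGNAA, on both strands (read on the other strand as TTNCATCA). The windows were the RefSeq promoters of assembly GRCm38.p6, from 250 bases before to 50 bases after each gene's start, and all 10 members had a window. The motif was found in 4 of the 10 members, compared with 4.51% of the 27025 genes with a window. The members were listed by name as genes of the ATF4 response, so the comparison is no independent evidence for it. The sites are shown because they are the sequence by which ATF4 is known to recognize its targets. Each is written along its own gene, with the motif in capitals.
Asns, chr6:7693214-7693243, minus strand: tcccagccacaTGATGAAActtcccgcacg
Trib3, chr2:152344028-152344057, minus strand: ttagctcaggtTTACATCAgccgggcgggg
Chac1, chr2:119351038-119351067, plus strand: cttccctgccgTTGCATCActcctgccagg
Slc7a11, first site, chr3:50443661-50443690, minus strand: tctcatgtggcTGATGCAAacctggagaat
Slc7a11, second site, chr3:50443642-50443671, minus strand: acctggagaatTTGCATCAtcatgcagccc
The motif of Asns began 23 bases before the start of the gene, and that of Chac1 193 bases before it. In Slc7a11 the motifs began 66 and 47 bases before the start, the first on the strand of the gene and the second on the other strand. In Trib3 the motif lay 15 bases after the start, on the other strand. The windows of Atf4, Ddit3, Psat1, Phgdh, Shmt2 and Sesn2 did not hold these letters, which says nothing of sites outside the windows or of other spellings. The reference is not the FVB strain of the mice.

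Libraries were made with a 3′ method, which reads near the end of each transcript, and the authors deposited raw counts per gene. Totals on genes ranged from 2509482 to 5893246 counts, so that a floor of 3 counts corresponded to between 0.509 and 1.20 CPM (counts scaled to the total on genes). Intervals and floors cover counting error only. The library of tumor 1 stood apart. Its counts differed from those of the other tumors by a chi-square per degree of freedom of 94.1 to 132, compared with 20.9 to 35.3 between the others. Malat1, a nuclear RNA, was at 130 CPM in tumor 1 and between 6192 and 15222 CPM in tumors 2 to 6, and the share of reads on no gene was lowest in tumor 1, at 16.1% compared with up to 41.4%. All 7 luminal epithelial markers were detected, and they summed to 3957 to 4874 CPM. The 6 basal markers summed to 131 to 502 CPM, highest in tumor 5, the tumor with the highest hypoxia score and the highest Phgdh level below. The 13 immune markers, of which 2 had no counts, summed to 104 to 307 CPM, and the endothelial and fibroblast lists reached at most 4.12 and 21.6 CPM. Erythroid markers reached 864 CPM in tumor 3. The part of these differences between libraries in the results below was not tested, and the slopes and correlations of the members are given with and without tumor 1 where they are discussed.

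Atf4, which encodes the factor itself, had the highest level of the members per exon length. Its levels in tumors 1 to 6 were 1362, 865, 575, 725, 567 and 741 CPM. Tumor 1 was the highest, and its gap to tumor 2 was 0.6252 of the whole range, barely over the value of 0.625 used as Dixon's critical value for 6 values. The gap was under that value with TMM scaling (0.548), with size factors (0.528) and without the 10 most abundant genes (0.516). The highest level was 2.40-fold the lowest (95% counting interval 2.30 to 2.51), and 1.53-fold without tumor 1. The gene lies on chromosome 15 from 80255184 to 80257541 on the plus strand (GENCODE M21 annotation of GRCm38).

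Ddit3 and Trib3 encode the regulators among the members. Ddit3 encodes CHOP, a transcription factor linked to cell death under lasting stress. In tumors 1 to 6 it was at 119.8, 80.1, 70.3, 67.9, 61.5 and 54.1 CPM. Tumor 1 was again the highest, and tumors 2 to 6 lay within 1.48-fold of each other. Trib3, a pseudokinase induced by ATF4 and CHOP that restrains their activity, was at 32.6, 24.7, 24.0, 25.7, 18.0 and 12.1 CPM in tumors 1 to 6. Its low value was that of tumor 6, which was 2.69-fold below tumor 1 (95% counting interval 2.01 to 3.64), and the gene still varied 2.13-fold without tumor 1. An exon of Ddit3 overlaps exons of Mars and Gm4189 on the opposite strand, and an exon of Shmt2 overlaps Ndufa4l2 in the same way. The libraries were stranded, but whether counting used the strand is not stated, so their counts cannot be fully separated from those of the neighbors.

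Asns encodes asparagine synthetase, a classical readout of the pathway. It was at 27.8, 16.3, 21.3, 23.8, 23.2 and 19.5 CPM in tumors 1 to 6, a spread of 1.70-fold (95% counting interval 1.20 to 2.46) and the narrowest of the 10 members. Its coefficient of variation over the tumors was 17.9%, compared with 36.5% for Atf4. Its edgeR dispersion, taken relative to that of genes of like abundance, was higher than that of only 7.97% of the 12088 genes tested.

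Phgdh, Psat1 and Shmt2 encode enzymes of serine and glycine metabolism. PHGDH catalyzes the first step of serine synthesis and PSAT1 the next, and SHMT2 converts serine to glycine in mitochondria. Psat1 was at 297, 123, 153, 194, 135 and 127 CPM in tumors 1 to 6. Tumor 1 was the highest and tumor 4 was next. Shmt2 was at 119 CPM in tumor 1 and at 40.2, 46.1, 37.9, 33.7 and 32.2 CPM in tumors 2 to 6. Tumor 1 stood apart, with a gap of 0.840 of the range, and the other 5 tumors lay within 1.43-fold of each other. The 3.13-fold excess of tumor 1 over the median of the others was larger than that of 98.0% of the 8873 genes that averaged 10 CPM or more.

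Phgdh ran the other way. In tumors 1 to 6 it was at 0.848, 1.59, 4.36, 3.40, 6.39 and 2.73 CPM. The value of tumor 1 rests on 5 counts (exact 95% Poisson interval 0.275 to 1.98 CPM) and that of tumor 5 on 32 (4.37 to 9.02 CPM). Tumor 1 was the lowest and tumor 5 the highest, 7.53-fold apart, with a wide counting interval of 2.91 to 24.8. Of the windows of 50 bases that tile the final 300 bases of Phgdh, 35.1% are also found in 11 other annotated genes, so reads could be lost or shared there. Of these, 5 were in the files, and together they reached at most 0.170 CPM. Per exon length, Psat1 was at 73.4 TPM or more in each tumor, while Phgdh did not exceed 6.44 TPM.

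Chac1 and Slc7a11 act on glutathione and its precursor cystine. CHAC1 degrades glutathione and SLC7A11 is the cystine importer xCT. Chac1 was at 2.38, 0.398, 0.727, 1.91, 2.40 and 1.95 CPM in tumors 1 to 6, from between 1 and 14 counts. Slc7a11 was at 0.679, 0.797, 1.45, 2.13, 0.599 and 0.586 CPM, from between 2 and 10 counts. Both were near the floor in several tumors. The ratio of the highest to the lowest tumor was 6.01 for Chac1 (95% counting interval 0.890 to 257) and 3.63 for Slc7a11 (0.935 to 20.5), so differences between tumors were not detectable at this depth. These 2 members did not pass the filter on low counts and were not tested.

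Sesn2 encodes sestrin 2, a leucine sensor that restrains mTORC1. It was at 15.1, 14.7, 7.52, 10.0, 9.98 and 10.2 CPM in tumors 1 to 6. Tumors 1 and 2 were nearly level at the top, tumor 3 was the lowest, and the remaining tumors lay together between them.

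**Figure D1:**
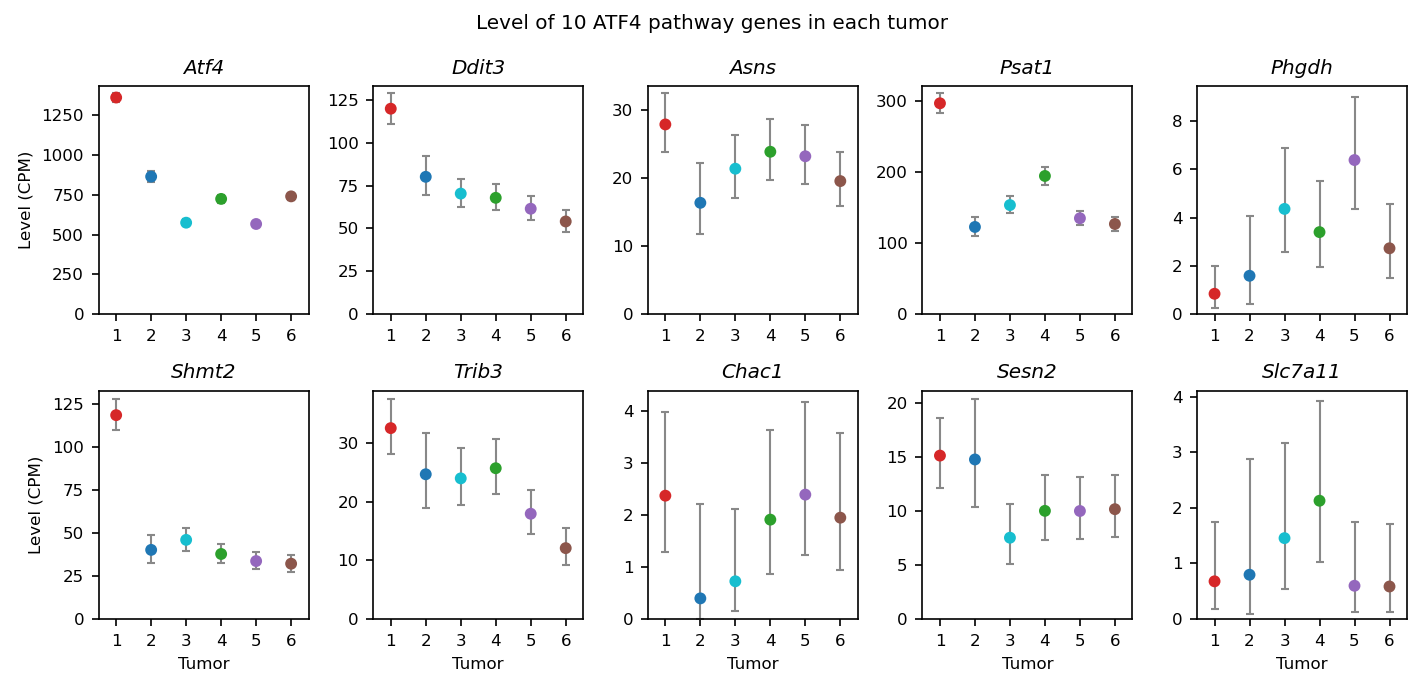
Level of each member in CPM (y axis, from 0, a separate scale per gene) in tumors 1 to 6 (x axis), with 1 point per library and bars for the exact 95% Poisson interval of its count. Tumor 1 is the highest point for 7 genes and the lowest for Phgdh (0.848 CPM), while the intervals of Chac1 and Slc7a11 overlap widely.

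Divided by exon length (TPM), the medians of the members fell into steps. Atf4 had a median of 791 TPM and lay above all other members in each tumor (lowest 602 TPM). Ddit3 (104 TPM) and Psat1 (85.3 TPM) followed, with ranges that overlapped. Shmt2, Trib3 and Asns, at medians of 33.1, 29.6 and 20.5 TPM, also overlapped one another. The highest value of Shmt2 (97.8 TPM) lay above the lowest of Ddit3 (77.7 TPM) and Psat1 (73.4 TPM). Sesn2 was at 7.38 TPM, below the whole range of those genes, and its lowest value of 5.47 TPM was under the highest of Phgdh (6.44 TPM). Phgdh and Chac1 were near each other at 3.16 and 3.01 TPM, and Slc7a11 was the lowest at 0.138 TPM. Since a 3′ library yields reads from transcript ends, division by length lowers the values of long genes such as Slc7a11, whose exons cover 13922 bases.

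In CPM, the highest value of each abundant member was that of tumor 1, with Sesn2 as the exception under other scalings. The 7 members with a mean of at least 10 CPM were all highest in tumor 1, compared with 38.2% of the 8873 genes above that mean. Their median level in tumor 1 was 1.77-fold the median of the other tumors, compared with 1.10-fold over all genes, a shift of 0.14 on the log2 scale that is common to the library. After TMM scaling, scaling by size factors or removal of the 10 most abundant genes, 6 of the 7 remained highest in tumor 1, and Sesn2 was highest in tumor 2. A single tumor stood apart by Dixon's criterion for 2 members, Atf4 and Shmt2, compared with 18.1% of genes. On the log2 scale, and under each of the other scalings, only Shmt2 did so. The median ratio of the highest to the lowest tumor was 2.40 for the 7 members and 2.30 over all genes. Without tumor 1 it was 1.53 and 1.76, respectively. In bulk RNA, fewer cells with a high level and a lower level in every cell cannot be told apart.

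**Figure D2:**
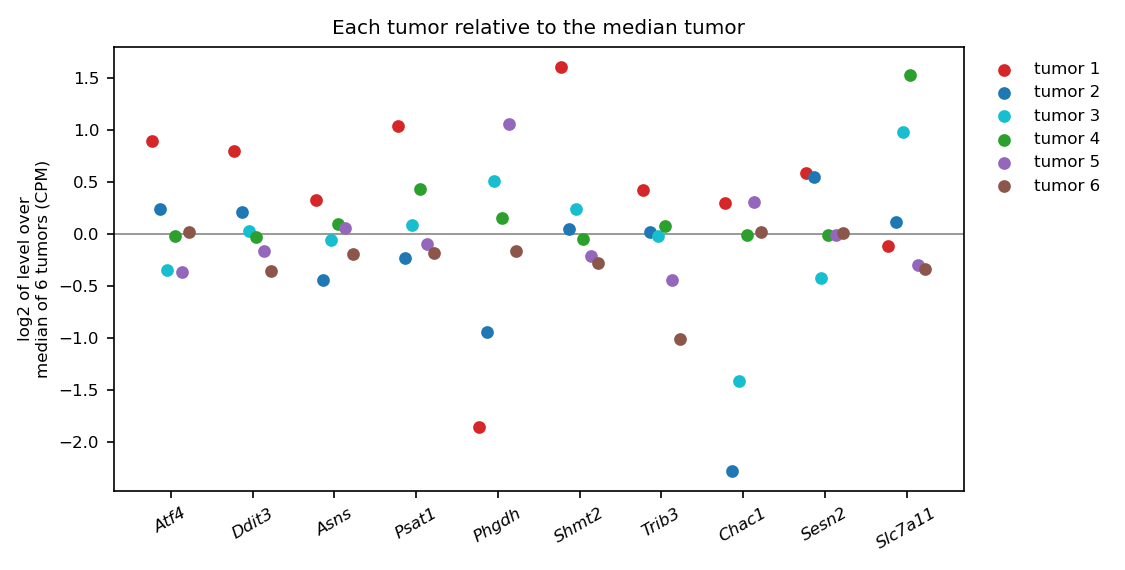
Log2 of each tumor's level over the median of the 6 tumors in CPM (y axis) for each member (x axis), with 1 colored point per tumor. The red points of tumor 1 lie above 0 for 8 members, most for Shmt2, and lie below 0 for Phgdh and Slc7a11.

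The question of whether the members follow tumor hypoxia was addressed with the 3-gene score that the study used, the mean TPM of Vegfa, Slc2a1 and Car9, which encode VEGF-A, the glucose transporter GLUT1 and carbonic anhydrase IX. The score was 48.5, 37.2, 51.4, 76.6, 94.4 and 47.3 TPM in tumors 1 to 6. Tumors 4 and 5 were the high ones. Slopes are given as the log2 change of a gene for each doubling of the score, with SE, from edgeR's quasi-likelihood test on all 6 tumors, and p-values were adjusted over the 12088 genes tested. At an adjusted p under 0.05, 0 of the 8 members tested were called along the score in either direction, and 0% of all genes were. In the same fit, Vegfa, Car9 and Slc2a1 themselves were not called (adjusted p 0.863, 0.755 and 0.954 by edgeR). A member without a call may thus still vary with the score. At an unadjusted p under 0.05, 0 members and 4.24% of all genes passed. DESeq2 called 18 genes, 0.132% of all genes with positive and 0.0165% with negative slopes, and none was a member (it gave no adjusted p for Phgdh). At an unadjusted p under 0.05 by DESeq2, 0 members and 4.51% of genes passed.

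No slope of a member along the score had an unadjusted p under 0.05 by edgeR, and that of Phgdh came nearest (0.0848). Atf4 had a slope of -0.57 ± 0.43, Ddit3 of -0.38 ± 0.37 and Trib3 of -0.21 ± 0.41. Those of the synthesis enzymes were 0.18 ± 0.34 for Asns, -0.06 ± 0.46 for Psat1, -0.65 ± 0.58 for Shmt2 and 1.26 ± 0.66 for Phgdh, the largest (adjusted p 0.954 by edgeR). Sesn2 had a slope of -0.42 ± 0.41. Thus 6 of the 8 slopes were negative, and Phgdh and Asns had the positive ones. Without tumor 1 the slope of Phgdh was 0.98 ± 0.51, that of Atf4 was -0.39 ± 0.29, and that of Psat1 turned to 0.20 ± 0.27. The mouse identifiers have 2 prefixes, the larger in tumors 1, 4, 5 and 6 and the other in tumors 2 and 3. With a term for the prefix the slopes were -1.01 ± 0.45 for Atf4, -1.08 ± 0.62 for Shmt2 and 1.73 ± 0.78 for Phgdh. Their unadjusted p-values by edgeR were 0.0551, 0.116 and 0.0567, with an adjusted p of 0.889 for each. Within the 4 tumors of the larger prefix, a fit added after seeing the data, they were -0.91 ± 0.54, -1.24 ± 0.70 and 1.62 ± 0.82 (adjusted p 0.907 by edgeR for each).

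Correlations with the score gave the same picture. Over the 10 members, 0 reached an unadjusted exact permutation p under 0.05. The highest correlation was that of Phgdh (Pearson's r 0.709, exact permutation p 0.119; Spearman's rho 0.771, exact permutation p 0.103), and r was 0.351 without tumors 4 and 5, the tumors farthest from the median score, and 0.842 without tumor 1. For Atf4, r was -0.549 (exact permutation p 0.267; rho -0.657, p 0.175) with -0.247 without tumors 4 and 5 and -0.647 without tumor 1. Leaving out tumor 1 moved r from 0.457 to 0.849 for Asns and from -0.351 to -0.682 for Shmt2.

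The second question was whether the other members vary with Atf4 mRNA. Along a doubling of the Atf4 level, 0 of the 7 other members tested were called at an adjusted p under 0.05 by edgeR. Of the 12087 genes tested, 0% were called. At an unadjusted p under 0.05, 3 members passed, 2 with positive and 1 with negative slopes, compared with 18.7% of all genes. DESeq2 called 523 genes, 1.84% of all genes with positive and 2.48% with negative slopes, and none was a member. At an unadjusted p under 0.05 by DESeq2, 3 members (Ddit3, Shmt2 and Phgdh) and 19.8% of genes passed. Slopes were 1.14 ± 0.33 for Shmt2, 0.72 ± 0.36 for Sesn2, 0.68 ± 0.32 for Psat1, 0.66 ± 0.27 for Ddit3, 0.45 ± 0.35 for Trib3 and 0.18 ± 0.29 for Asns. Phgdh had the opposite sign, at -2.03 ± 0.56 (adjusted p 0.151 by edgeR). The median of the 7 slopes was 0.66, compared with -0.02 over all genes.

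These positive slopes depended on tumor 1 for most members. Without it, the slope of Shmt2 was 0.03 ± 0.44, that of Trib3 0.07 ± 0.60 and that of Ddit3 0.32 ± 0.43, while Psat1 (-0.05 ± 0.47) and Asns (-0.25 ± 0.50) changed sign. Sesn2 and Phgdh were the members whose slopes stayed of similar size, at 1.04 ± 0.60 and -1.82 ± 0.85. Neither passed the test in that fit (adjusted p 0.847 and 0.846 by edgeR). All genes changed with tumor 1 as well. At an unadjusted p under 0.05 by edgeR, 2256 of 12087 genes passed with all tumors and 659 of 11919 without tumor 1. With the prefix term and all tumors, their slopes were 0.73 ± 0.37 and -2.16 ± 0.54. Within the 4 tumors of the larger prefix they were 0.49 ± 0.39 and -2.27 ± 0.58 (adjusted p 0.412 and 0.0692 by edgeR), and the adjusted p of Shmt2 was 0.0596. These 4 tumors include tumor 1, so that fit is not independent of it. At an unadjusted p under 0.05 by edgeR, 3715 of the 11600 genes in that fit passed.

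**Figure D3:**
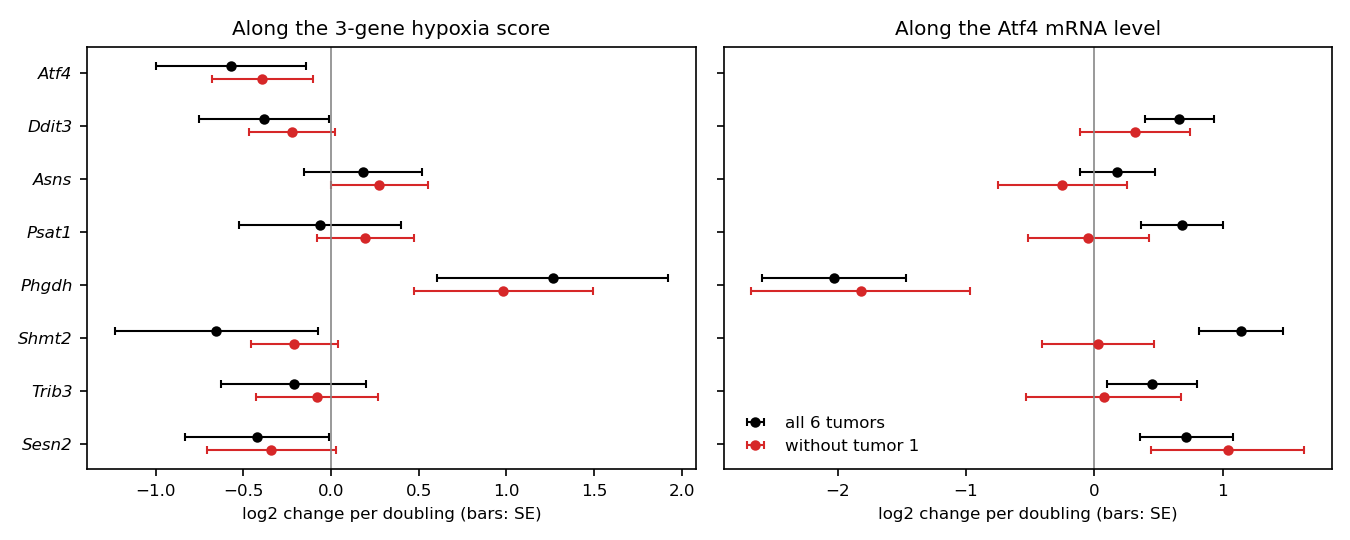
Log2 change of each member tested per doubling of the hypoxia score (left) and of Atf4 mRNA (right) on the x axes, with SE, for all 6 tumors (black) and without tumor 1 (red). Along Atf4, the point of Shmt2 moves from 1.14 to 0.03 without tumor 1, whereas those of Phgdh (-2.03 and -1.82) and Sesn2 (0.72 and 1.04) keep their side of 0.

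Across the 6 tumors, 3 of 9 relations with Atf4 had an unadjusted exact permutation p under 0.05, out of 19 relations computed with the score or Atf4. The share of all genes under this test was not computed. In the edgeR fit along Atf4, 18.7% of all genes had an unadjusted p under 0.05, so the count is not particular to the members. The smallest two-sided p that 720 orders of the tumors allow is 0.00139. Phgdh was inversely correlated with Atf4 (r -0.953, exact permutation p 0.00278; rho -0.943, exact permutation p 0.0167). It stayed so without tumors 1 and 3, the farthest from the median of Atf4 (r -0.972), and without tumor 1 alone (r -0.893, exact permutation p 0.0250). The counts of Phgdh were between 4 and 32 per tumor, so that each of its points carries a wide counting error. Sesn2 was correlated with Atf4 (r 0.856, exact permutation p 0.0236; rho 0.943, exact permutation p 0.0167), also without tumor 1 (r 0.869, exact permutation p 0.0250) and without tumors 1 and 3 (r 0.793). Its exact permutation p did not stay under 0.05 without tumor 3 (0.05), tumor 4 (0.0583), tumor 5 (0.05) or tumor 6 (0.0750).

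The relation of Ddit3 to Atf4 rested on tumor 1. Its r was 0.850 (exact permutation p 0.0319) and its rho 0.600 (exact permutation p 0.242), and r was 0.512 without tumor 1 and 0.627 without tumors 1 and 3. For Shmt2, r was 0.792 (exact permutation p 0.0667; rho 0.371, p 0.497), and it was 0.0974 without tumor 1 and 0.830 without tumors 1 and 3. For Psat1, r was 0.688 (exact permutation p 0.135; rho 0.143, p 0.803), and it was -0.0847 without tumor 1 and -0.112 without tumors 1 and 3. For both, r without tumor 1 alone was near 0. For Trib3, r was 0.479 (exact permutation p 0.349; rho 0.600, p 0.242), with 0.0133 and 0.186 in the same reduced sets. For Asns, r was 0.334 (exact permutation p 0.526; rho 0.257, p 0.658), with -0.492 and -0.720. Chac1 and Slc7a11 had exact permutation p-values of 0.749 and 0.544 and rest on few counts.

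**Figure D4:**
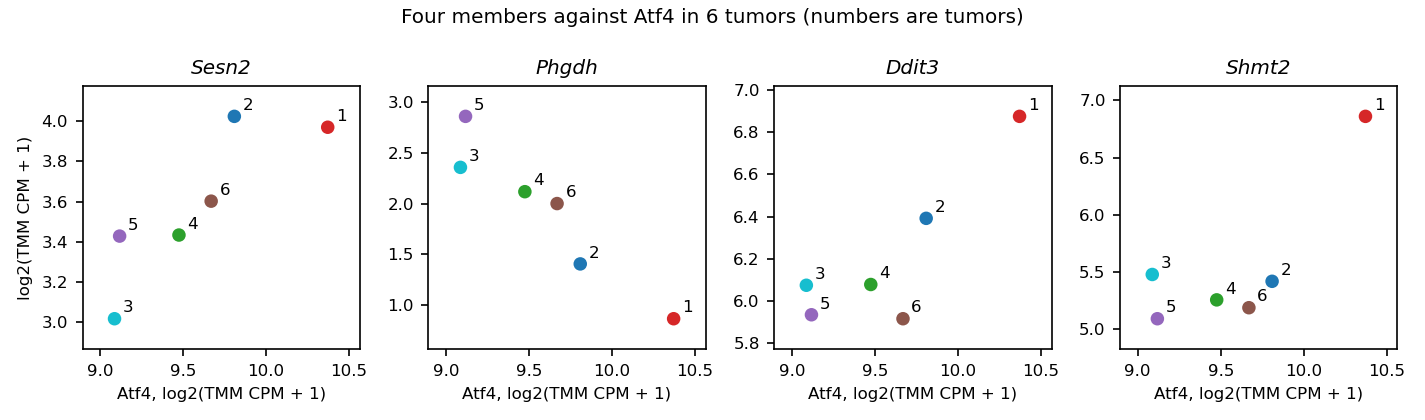
Level of Sesn2, Phgdh, Ddit3 and Shmt2 (y axes) against that of Atf4 (x axes), both as log2(TMM-scaled CPM + 1), with 1 numbered point per tumor. Sesn2 (r 0.856) and Phgdh (r -0.953) follow Atf4 across tumors 2 to 6 as well, while Shmt2 is nearly level except in tumor 1.

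Pairs of the more abundant members varied together when tumor 1 was included. Among the 7 members with a mean of at least 10 CPM, all 21 pairs had a positive r, with a median of 0.681. These 7 are also the members highest in tumor 1 in CPM. Phgdh, Slc7a11 and Chac1 were under that mean and are not in the pairs. Their r with Atf4 was -0.953, -0.327 and 0.172. Over all pairs of the 8873 genes, 50.14% were positive and the median was 0.0027. Without tumor 1 the median of the member pairs was 0.0133 and 11 of 21 were positive, compared with 50.05% of all gene pairs. Leaving out any other tumor gave medians of 0.649 to 0.835. These pairs share their libraries, and no p-value is given.

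Among the genes whose pattern over the 6 tumors was most like that of Atf4 were Vwa8 (r 0.990), Gne (0.988), Rab11b (0.987) and Zdhhc9 (0.987), by Pearson's r on log2(TMM-scaled CPM + 1). Gne, which encodes the key enzyme of sialic acid synthesis, was at 85.5 CPM in tumor 1 and at a median of 36.3 CPM in tumors 2 to 6. Without tumor 1, r was still 0.989 for Vwa8 and 0.968 for Zdhhc9. Among the 8872 genes ranked, Sesn2 was at place 501, Ddit3 at 538, Shmt2 at 924, Psat1 at 1645, Trib3 at 2805 and Asns at 3434. Many genes outside the list were thus closer to Atf4 than any member was.

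Upstream of ATF4 are the eIF2α kinases and the factors that control eIF2. Of 14 such genes, all averaging 10 CPM or more, 7 were lowest in tumor 1 and 2 were highest, compared with 27.5% and 38.2% of all genes. Their median ratio of tumor 1 to the others was 0.681, compared with 1.77 for the members. Eif2ak4, which encodes the amino acid sensor GCN2, was at 6.45 CPM in tumor 1 and between 32.1 and 69.3 CPM in tumors 2 to 6. Its coactivator Gcn1l1 was at 12.6 CPM in tumor 1 and between 27.1 and 78.5 CPM elsewhere. Eif2ak3, which encodes PERK, was at 2.88 CPM compared with a median of 11.5 CPM in the others, all of them higher. Ppp1r15a, which encodes the eIF2α phosphatase subunit GADD34 and is itself a target of ATF4, was at 7.30 CPM compared with 19.1 to 24.9 CPM.

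The 7 genes of other ATF4 partners and related factors were mixed, with 2 highest and 2 lowest in tumor 1. Over all genes, 38.2% were highest and 27.5% lowest there. Atf5, which is controlled by eIF2α phosphorylation like Atf4, was at 123 CPM in tumor 1 and at 77.3 CPM or less in the others. Its slope along Atf4 was 1.10 ± 0.28 (adjusted p 0.145 by edgeR), and 1.18 ± 0.45 without tumor 1 (adjusted p 0.846). Cebpg, whose protein pairs with ATF4, was lowest in tumor 1, at 14.4 CPM compared with 32.0 to 53.0 CPM. Atf3, a stress factor downstream of ATF4, was highest in tumor 2 at 443 CPM and lowest in tumor 3 at 108 CPM.

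Genes of synthesis and transport are set beside all genes, of which 38.2% were highest and 27.5% lowest in tumor 1. Their median ratio of tumor 1 to the others was 1.93 for other amino acid synthesis. It was 1.31 for the other serine, glycine and one-carbon enzymes and 1.21 for the transporters. Over all genes it was 1.10, and for the members 1.77. Of the other serine, glycine and one-carbon enzymes, 2 of 8 reached a mean of 10 CPM, Psph and Shmt1, and both were highest in tumor 1. Psph, which encodes the last enzyme of serine synthesis, was at 20.4 CPM compared with 10.2 to 15.3 CPM. Shmt1, the cytosolic counterpart of Shmt2, was at 25.5 CPM compared with up to 25.3 CPM, a difference within counting error. Of other amino acid synthesis genes, 2 of 5 were highest and 0 lowest in tumor 1. Glul, which encodes glutamine synthetase, was at 83.7 CPM compared with 27.1 to 64.2 CPM. Pycr1, a proline synthesis gene, was highest in tumors 3 and 1 (25.5 and 24.4 CPM) and lowest in tumor 5 (9.78 CPM), whereas Oat, which encodes ornithine aminotransferase, was highest in tumor 5 (29.0 CPM).

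Among the amino acid transporters, 3 of 7 were highest and 1 was lowest in tumor 1, compared with 38.2% and 27.5% of all genes. Slc6a9, which encodes the glycine transporter GLYT1, was at 24.8 CPM compared with 5.86 to 10.2 CPM. Its median in tumors 2 to 6 was 7.19 CPM, and it reached the mean of 10 CPM only through tumor 1. Slc1a4, which encodes a carrier of serine, alanine and cysteine, was at 105 CPM compared with 32.0 to 53.3 CPM. Slc38a1, which encodes a glutamine carrier, was highest in tumors 5 and 4 (76.1 and 49.1 CPM), the tumors with the highest score. Its slope along the score was 1.20 ± 0.32 (adjusted p 0.927 by edgeR), and 1.23 ± 0.29 without tumor 1 (adjusted p 0.269).

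The 20 cytosolic aminoacyl-tRNA synthetases, which charge tRNAs with amino acids, were split, with 10 highest and 5 lowest in tumor 1, compared with 38.2% and 27.5% of all genes. Wars, named after its values were seen, is among the 10 and reached the mean of 10 CPM only through tumor 1. It was at 19.5 CPM there, compared with a median of 8.77 CPM in the others. Farsb, of the phenylalanine enzyme, was at 219 CPM in tumor 1 compared with 79.7 to 112 CPM. Lars, of the leucine enzyme, was at 19.7 CPM compared with 69.5 to 82.9 CPM, and Sars, of the serine enzyme, at 87.9 CPM compared with 142 to 269.7 CPM. The CARE motif was found in the windows of 5 of the 13 synthetase genes that had one (Aars, Gars, Iars, Tars and Yars), compared with 4.51% of all genes. It was also found in 2 of 7 partners and factors (Atf3 and Nupr1), 2 of 7 other synthesis genes (Pycr1 and Got1), 1 of 6 transporters (Slc1a4) and 3 of 10 other effectors (Herpud1, Vldlr and Fgf21). In the lists of eIF2 control, one-carbon enzymes, cystine and glutathione, ER chaperones and dissociation stress, 0 genes had it. These lists, too, were drawn up by name.

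The other effectors of ATF4 showed no common direction, with 2 of 9 genes highest and 3 lowest in tumor 1. Over all genes, 38.2% were highest and 27.5% lowest there. Vegfa, which is part of the score, was at 36.3 CPM in tumor 1 and reached 139 CPM in tumor 5. Vldlr, which encodes a lipoprotein receptor, was lowest in tumor 1 at 34.3 CPM and highest in tumor 4 at 114 CPM. Of the cystine and glutathione genes, 3 of 8 were highest and 2 lowest in tumor 1, compared with the same shares of all genes. Hmox1, which encodes heme oxygenase 1, was at 32.7 CPM compared with 10.6 to 18.2 CPM, Gclc, which encodes the limiting enzyme of glutathione synthesis, at 12.6 CPM compared with a median of 33.5 CPM, and Nqo1 was highest in tumors 3 and 1 (37.1 and 36.5 CPM).

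The ER chaperones, which mark the unfolded protein response, were divided in tumor 1. Their median ratio of tumor 1 to the others was 0.924, and Hspa5 (1.16) and Creld2 (1.83), which were named after their values were seen, were the 2 that were highest in tumor 1. Hsp90b1, which encodes GRP94, was at 33.3 CPM in tumor 1 and between 329.9 and 584 CPM in tumors 2 to 6. Pdia4, a disulfide isomerase, was at 3.05 CPM compared with 21.3 to 49.6 CPM, and Hyou1 at 4.07 CPM compared with 8.20 to 21.1 CPM. These 3 of the 8 genes were lowest in tumor 1 and the 2 above were highest, compared with 27.5% and 38.2% of all genes. Genes known to respond to tissue dissociation also varied. Jun was at 244 CPM in tumor 1 compared with 631 to 899 CPM, Hspa1b ranged from 60.2 CPM in tumor 2 to 485 CPM in tumor 3, and Hspa1a from 61.0 CPM in tumor 2 to 266 CPM in tumor 1. The last 2 genes are nearly identical copies, so the split of reads between them is uncertain. Of the 8 dissociation genes, 1 was highest and 4 were lowest in tumor 1, compared with 38.2% and 27.5% of all genes. The part of the dissociation genes in the levels of the members was not tested.

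In all 10 lists, 0 genes were called along the score or along Atf4 at an adjusted p under 0.05 by edgeR. At an unadjusted p under 0.05 along Atf4, 5 list genes passed with positive slopes, namely Slc6a9 and Slc1a4 of 9 transporters, Farsb of 20 synthetases, Atf5 of 7 partners and Hmox1 of 10 cystine and glutathione genes. Another 7 passed with negative slopes. They were 2 of 10 other effectors (Vegfa and Vldlr), 2 cystine and glutathione genes (Gsr and Gpx4), and 1 gene each of other amino acid synthesis (Aldh18a1), ER chaperones (Hyou1) and dissociation stress (Hspa1b). None of 14 eIF2 control genes or 7 one-carbon enzymes passed, compared with 18.7% of all genes. Gsr, Gpx4 and Aldh18a1 were named after their values were seen.

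**Figure D5:**
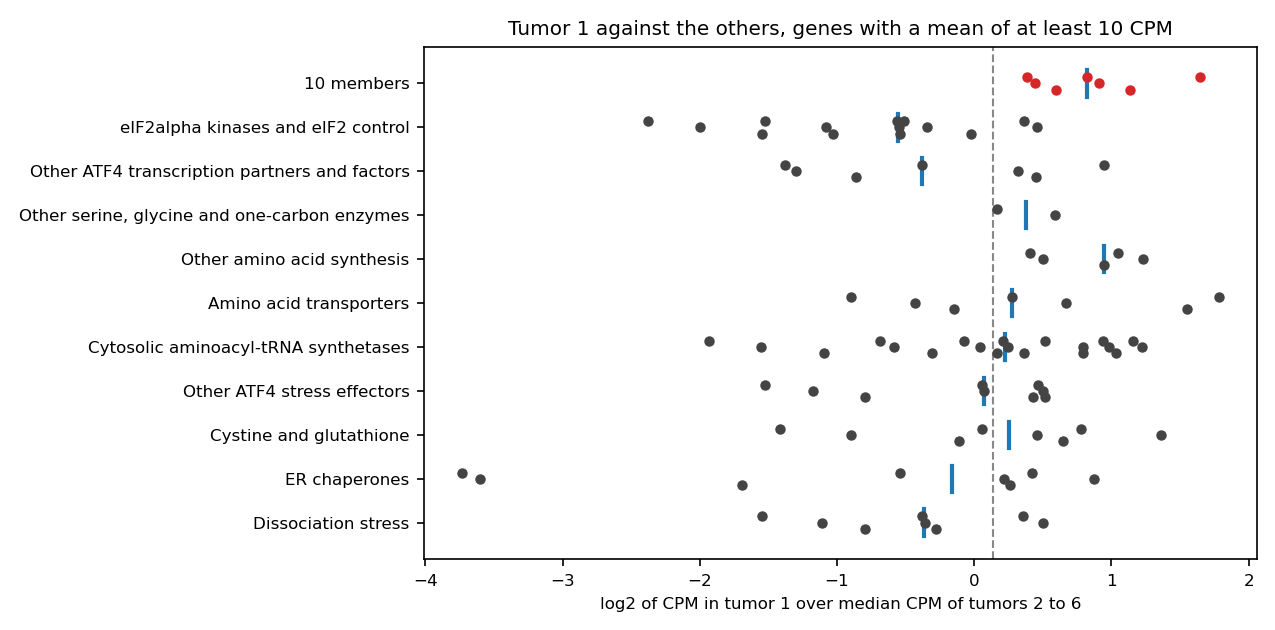
Log2 ratio of the level in tumor 1 to the median of tumors 2 to 6 (x axis, from CPM) for genes averaging 10 CPM or more, by list (y axis), with 1 point per gene and a blue bar at the median of the list. The dashed line is the median of all genes (0.14), which all 7 members exceed, while most eIF2 control genes and the lowest ER chaperones lie to its left.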

How the data were processed

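RNA from FACS-sorted CD45-EPCAM+ cells was sequenced in 6 samples of 1 group with a stranded 3′ kit with UMIs. The authors aligned reads to GRCm38 with STAR 2.5 and counted them with HTSeq, and deposited raw counts per gene. The annotation release, the strand setting and whether UMIs were collapsed are not given in the sources used here. The 5 rows that name no gene were left out (16.1 to 41.4% of reads). Symbols came from GENCODE M21 (47224 identifiers matched, 419 not). CPM used totals on genes, and TPM used union exon lengths.

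Genes were filtered with filterByExpr (count 10, total 15, 3 libraries). Slopes were tested with edgeR 4.0.16 (TMM, quasi-likelihood) in R 4.3.3, with Benjamini-Hochberg adjustment over all genes. DESeq2 1.42.0 was an alternative. Correlations used log2(TMM-scaled CPM + 1), with exact two-sided permutation tests, unadjusted over 19 relations. The labels give the tumors different mouse identifiers, so p-values measure the spread between tumors. Identifiers have 2 prefixes (4 and 2 tumors), and slopes were also fitted with a prefix term and, as an alternative added after seeing the data, within the 4 tumors of 1 prefix. The members and lists were chosen with earlier results of these data known. Named genes were the members, the score, the 5 genes most correlated with Atf4 (1 of them is not reported here), and the 3 most variable genes of each list with a mean of at least 10 CPM. Python 3.11.15 was used. Other alternatives were no filter, library totals, a prefix term, other scalings and pseudocounts, and each tumor left out.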

Additional observations from a re-analysis of the deposited data

Results flagged for a closer look

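A single tumor stood apart from the other 5 in 9 of 45 values examined (10 members, 29 named genes of the lists and 6 marker sums), where the gap to the nearest tumor exceeded 0.625 of the whole range. The criterion flags about 1 in 20 groups of 6 by chance, but 18.1% of the 8873 genes averaging 10 CPM or more were flagged in these tumors, and the named genes were picked for their spread. The count is thus near that of all genes. Among the members these were Atf4 (0.625, just over the limit before rounding and under it in the other scalings) and Shmt2 (0.840), both with tumor 1 highest.

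Tumor 1 was also apart and highest for Slc1a4 (0.709) and Slc6a9 (0.770), which encode amino acid carriers, for Farsb (0.771) of the phenylalanine tRNA synthetase and for Hmox1 (0.658). It was apart and lowest for Ppp1r15a (0.673) and for Lars (0.788) of the leucine tRNA synthetase. Slc6a9 reached a mean of 10 CPM only through tumor 1. Tumor 3 was apart and highest in the sum of erythroid markers (0.926). The cause of these gaps was not tested, and tumor 1 was apart and highest for 13.1% of the same 8873 genes.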

How the results depend on the processing

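No paired analysis was possible because all 6 tumors belong to 1 group. Genes called along the score numbered 0 with edgeR, 18 with DESeq2 (16 positive, 2 negative), 10 without the filter on low counts, and 0 to 2 with each tumor left out (2 without tumor 1). Along Atf4 they were 0, 523 with DESeq2 (223 positive, 300 negative), 1 without the filter and 0 with any tumor left out. Relations with an exact p under 0.05 numbered 1 to 3 with each tumor left out (3 with all tumors, 1 without tumor 4 or tumor 5). The median r over pairs of the 7 members averaging 10 CPM or more ranged from 0.0133 (without tumor 1) to 0.835. On the log2 scale 1 member, in place of 2, had a tumor apart. The cause of these differences was not tested.

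With a term for the identifier prefix the slope of Asns along the score was -0.0099, within the 4 tumors of the larger prefix it was -0.075 (added after seeing the data), and with CPM the r of Psat1 with the score was 0.0586. With each tumor left out, slopes along the score ranged from -0.36 to 0.43 for Psat1 and from -0.37 to 0.077 for Trib3, and slopes along Atf4 from -0.25 to 0.22 for Asns and from -0.047 to 0.77 for Psat1. The r with the score ranged from -0.314 to 0.403 for Psat1, -0.651 to 0.0855 for Trib3 and -0.303 to 0.814 for Slc7a11. The r with Atf4 ranged from -0.492 to 0.826 for Asns, -0.0847 to 0.861 for Psat1 and -0.217 to 0.510 for Chac1. For Phgdh it ranged from -0.977 to -0.893, with an exact permutation p under 0.05 each time, and for Sesn2 from 0.822 to 0.913. The exact permutation p of Sesn2 stayed under 0.05 without tumor 1 or 2, and was 0.05 to 0.0750 without another tumor. Other than leaving out a tumor, 46 of 48 alternative slopes of members along the score and 35 of 35 along Atf4 kept their direction and their side of the threshold. No member passed the threshold in the main fits, and most alternatives called few or no genes. Keeping the side of the threshold is thus little evidence of stability. Depth limits Chac1, Slc7a11 and Phgdh most.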
